A study of Homo sapiens with 12 samples.

Results

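The levels of 10 genes of innate sensing were followed in human endometrial stromal cells exposed to inflammatory cytokines: the Toll-like receptors TLR1, TLR2, TLR3, TLR4, TLR5 and TLR6, the co-receptors CD14 and LY96, and the adaptors MYD88 and TICAM1. All probes that the array's gene table lists with 1 of these genes and no other were taken, which gave 12 of 54359 probes, for 9 of the 10 genes. TLR4, TLR5 and TICAM1 had 2 probes each and the other 6 genes 1 each. The single probe listed with TLR2 was also listed with its neighbour LOC100419170, so no level is given for TLR2.

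The cells were T-HESC, 1 telomerase-immortalised line of endometrial stromal cells, starved of serum for 24 h and then treated for 48 h. The groups were TNFα (5 ng/ml), IL1β (1 ng/ml), TNFα and IL1β together at those doses, and vehicle, with 3 arrays each. Each culture was hybridised to its own single-colour CodeLink array, and the 3 arrays of a group came from passages 13, 28 and 15 of the line (replicates 1, 2 and 3), in which order values are listed throughout. The replicates are therefore passages of 1 line and not separate donors. The study asked which genes differ in expression with these cytokines.

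Toll-like receptors recognise microbial molecules. TLR1 and TLR6 pair with TLR2 to sense bacterial lipopeptides, TLR4 senses lipopolysaccharide with LY96 (MD-2) and CD14, TLR5 senses bacterial flagellin, and TLR3 senses double-stranded RNA in endosomes. All of these receptors except TLR3 signal through the adaptor MYD88, which also serves the IL1 receptor, while TLR3 and internalised TLR4 use TICAM1 (TRIF). Both routes end in NF-kappaB, and TICAM1 also leads to the interferon regulatory factors.

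Values are scaled intensities, on which the median probe of every array lies close to 1, and differences are on the log2 scale with standard errors from limma, fitted to all 12 arrays. A probe was called at an adjusted p under 0.05 after Benjamini-Hochberg adjustment over the 53671 probes tested. All 12 probes had enough values to be tested. Different probes have different brightness for the same amount of RNA, so groups are compared only within a probe. Where different genes are set side by side, the brightness of their probes is a rough description and not an amount of RNA. The intensity of a probe cannot tell fewer expressing cells from less RNA per cell.

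Of 11 listed stromal genes 8 were measured, and 0 had a mean below the array median. COL1A1 and DCN were bright, with mean log2 intensities of 9.03 and 8.22, while PDGFRA stood between 1.41 and 3.48 over the arrays. Of 9 listed monocyte or macrophage markers 7 were measured, 6 of them with a mean below the array median, including ITGAM (−3.12) and TYROBP (−3.19). CD68, a lysosomal protein that other cells carry too, stood at 2.11. Of 6 other leukocyte markers 5 were measured, 3 of them with a mean below the array median, including PTPRC (−3.95). Of 4 endothelial markers 3 had a mean below it, but PECAM1 averaged 3.53. Of 5 measured epithelial markers 1 had a mean below it. SOD2, a target of NF-kappaB, rose by 3.96 ± 0.29 with TNFα, 3.49 ± 0.29 with IL1β and 4.77 ± 0.29 with both (limma, adjusted p = 0.00319, 0.0123 and 0.000518). The IL1β call ended with the passage as a block (adjusted p = 0.0594), without vehicle replicate 1 (0.0684) or without replicate 1 or 3 with both cytokines (0.0518 and 0.0515). Without the 3 arrays described next, the TNFα and IL1β calls ended (adjusted p = 0.104 and 0.190), as they did in fits of the 6 compared arrays alone (0.228 and 0.332). Without passage 13 or without passage 28 all 3 calls ended (adjusted p = 0.0746 to 0.507), and without passage 15 those with TNFα and IL1β did (0.183 and 0.251). On the first principal component of all probes, which took 22.6% of the variance, IL1β replicate 2 scored 53.0, TNFα replicate 3 68.7 and vehicle replicate 3 171, apart from the other 9 arrays.

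Over the 12 probes limma called 0 in each of the 9 comparisons. In the comparisons with vehicle, 2 of 12 probes had an unadjusted p under 0.05 with TNFα (TLR1 and TLR5), 2 with IL1β (TLR4 and TLR5) and 2 with both (TLR1 and TLR5), against 7.05%, 9.67% and 12.9% of all probes. The share of all probes called was 0.0466% with TNFα, 0.00559% with IL1β and 0.248% with both, so few calls were made anywhere. The median difference of the 12 probes was 0.26, 0.17 and 0.20, against −0.054, −0.13 and −0.13 over all probes. Adding IL1β to TNFα gave 0 calls and 0 probes at an unadjusted p under 0.05, where 0.00186% of all probes were called and 5.08% reached that p. Adding TNFα to IL1β likewise gave 0 and 0 (0% and 4.37% of all probes), as did TNFα against IL1β (0% and 5.04%). The effect of TNFα over both backgrounds gave 2 probes at that level, TLR5 (0.47 ± 0.15, adjusted p = 0.449) and TLR1, where 0.0801% of all probes were called and 7.53% reached that p. That of IL1β gave 1, TLR5 (0.60 ± 0.15, adjusted p = 0.316), where 0.0112% were called and 11.4% reached that p. The interaction gave 0 (0% and 3.59%). Comparisons with vehicle share the same 3 vehicle arrays, so their values are not independent of each other.

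On 1 of its 2 probes, TLR5 was the member whose cytokine arrays stood clear of the vehicle arrays in all 3 treatments. Probe 177109 read 0.699, 0.831 and 1.03 with TNFα, 0.838, 1.02 and 0.913 with IL1β, and 0.935, 1.11 and 1.03 with both cytokines, against 0.421, 0.584 and 0.467 with vehicle. Each of the 9 cytokine arrays lay above each of the 3 vehicle arrays. Of all probes tested, 552, or 1.03%, showed that order. The group means were 0.853 ± 0.167 with TNFα, 0.925 ± 0.0939 with IL1β and 1.03 ± 0.0896 with both, against 0.491 ± 0.0841 with vehicle (SD, n = 3 each). This probe is itself low in signal: all its vehicle readings and most of its cytokine readings lay under the array median. No detection calls are available.

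The difference of TLR5 from vehicle was 0.79 ± 0.21 with TNFα (limma, adjusted p = 0.392), 0.92 ± 0.21 with IL1β (adjusted p = 0.348) and 1.08 ± 0.21 with both (adjusted p = 0.0850). The last corresponds to 2.11-fold, with a 95% interval of 1.54 to 2.89, and its unadjusted p was 0.000367. None of these differences was called. Within passages 13, 28 and 15 the difference between both cytokines and vehicle was 1.15, 0.93 and 1.14. It was 0.73, 0.51 and 1.14 for TNFα and 0.99, 0.81 and 0.97 for IL1β. That all 9 within-passage differences were above 0 follows from the order of the arrays given above, and they share 3 vehicle readings. Leaving out any 1 array or passage kept the value for both cytokines between 0.97 and 1.21. With weights for array quality the call for both cytokines was gained, at 0.92 with an adjusted p of 0.0322, in a fit that called 1200 probes in all against 133 without weights. Across the alternatives that adjusted p ran between 0.0322 and 0.406.

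Among the cytokine groups the TLR5 means ran in the order both, IL1β, TNFα, and neighbours in that order did not differ beyond their spread. Both cytokines exceeded IL1β alone by 0.15 ± 0.21 (adjusted p = 1.000) and TNFα alone by 0.28 ± 0.21 (adjusted p = 0.981), and TNFα minus IL1β was −0.13 ± 0.21 (adjusted p = 0.963). The interaction, which asks whether the effect of both departs from the sum of the single effects, was −0.64 ± 0.29 (unadjusted p = 0.0515, adjusted p = 1.000) and was not called.

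The second TLR5 probe, 200002, did not show the separation. It read 0.0923 and 0.199 with TNFα (passages 28 and 15), 0.0315, 0.200 and 0.0767 with IL1β and 0.134 and 0.0843 with both (passages 28 and 15), against 0.175, 0.0974 and 0.200 with vehicle. On the passage 13 arrays with TNFα and with both cytokines it was at or below 0 and was left out of the fit. All groups overlapped, and the differences from vehicle were −0.15 ± 0.74, −0.94 ± 0.66 and −0.50 ± 0.74 for TNFα, IL1β and both. The probe is dim on every array, with a highest reading of 0.200.

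Markers of epithelial cells, which the uterine lining also holds, are given beside TLR5 probe 177109. The summed intensity of the 5 measured of 6 listed epithelial markers was 15.0 to 19.4 with TNFα, 12.5 to 13.7 with IL1β and 8.72 to 10.1 with both, against 20.3 to 23.9 with vehicle. The sum adds probes of different brightness and mostly follows the brighter ones. With vehicle KRT18 alone read 9.68, 14.7 and 10.2, and EPCAM 0.552, 0.403 and 0.785. Their median difference was −0.42 with TNFα, −0.87 with IL1β and −0.87 with both, with 1 of 5 above 0 in each comparison. An unadjusted p under 0.05 (limma) was reached by 1, 3 and 3 of the 5, against 7.05%, 9.67% and 12.9% of all probes. Those shares count every probe tested and not 1 probe per gene. Of all genes, 0.0773%, 0.011% and 0.348% were called. Of the 5 markers 0 were called with TNFα or IL1β and 1 with both. That was KRT18, a keratin that stromal cells can express and the brightest of the 5, which fell by 1.58 (adjusted p = 0.0447). Its call ended when any 1 array but TNFα replicate 2 was left out (adjusted p = 0.0572 to 0.150), without any passage (0.285 to 0.379), without the 3 arrays that stood apart (0.0829) and in a fit of the 6 compared arrays alone (0.220). KRT7, another keratin, had differences of 0.31, 0.050 and 0.15 with TNFα, IL1β and both, and the defining epithelial adhesion molecule EPCAM had −0.42, −0.92 and −0.87, at a mean log2 intensity of −1.36. KRT8 read 1.18, 1.08 and 1.28 with both cytokines against 5.25, 2.73 and 1.96 with vehicle. MUC1 read 3.33, 2.93 and 3.04 with both against 3.91, 4.91 and 6.82 with vehicle. The part of the 5 markers in the TLR5 result was not tested.

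Over the 12 arrays, 5 genes outside the family followed TLR5 probe 177109 most closely among 16989 genes with values on the same arrays. Their Pearson correlations were 0.96 for B3GALT5-AS1, 0.96 for the olfactory receptor OR51E1, 0.95 for NMRAL2P, 0.95 for the olfactory receptor OR8A1 and 0.92 for CFAP57. These arrays share the 4 treatments and the 3 passages, so the correlations are given as a description.

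**Figure D1:**
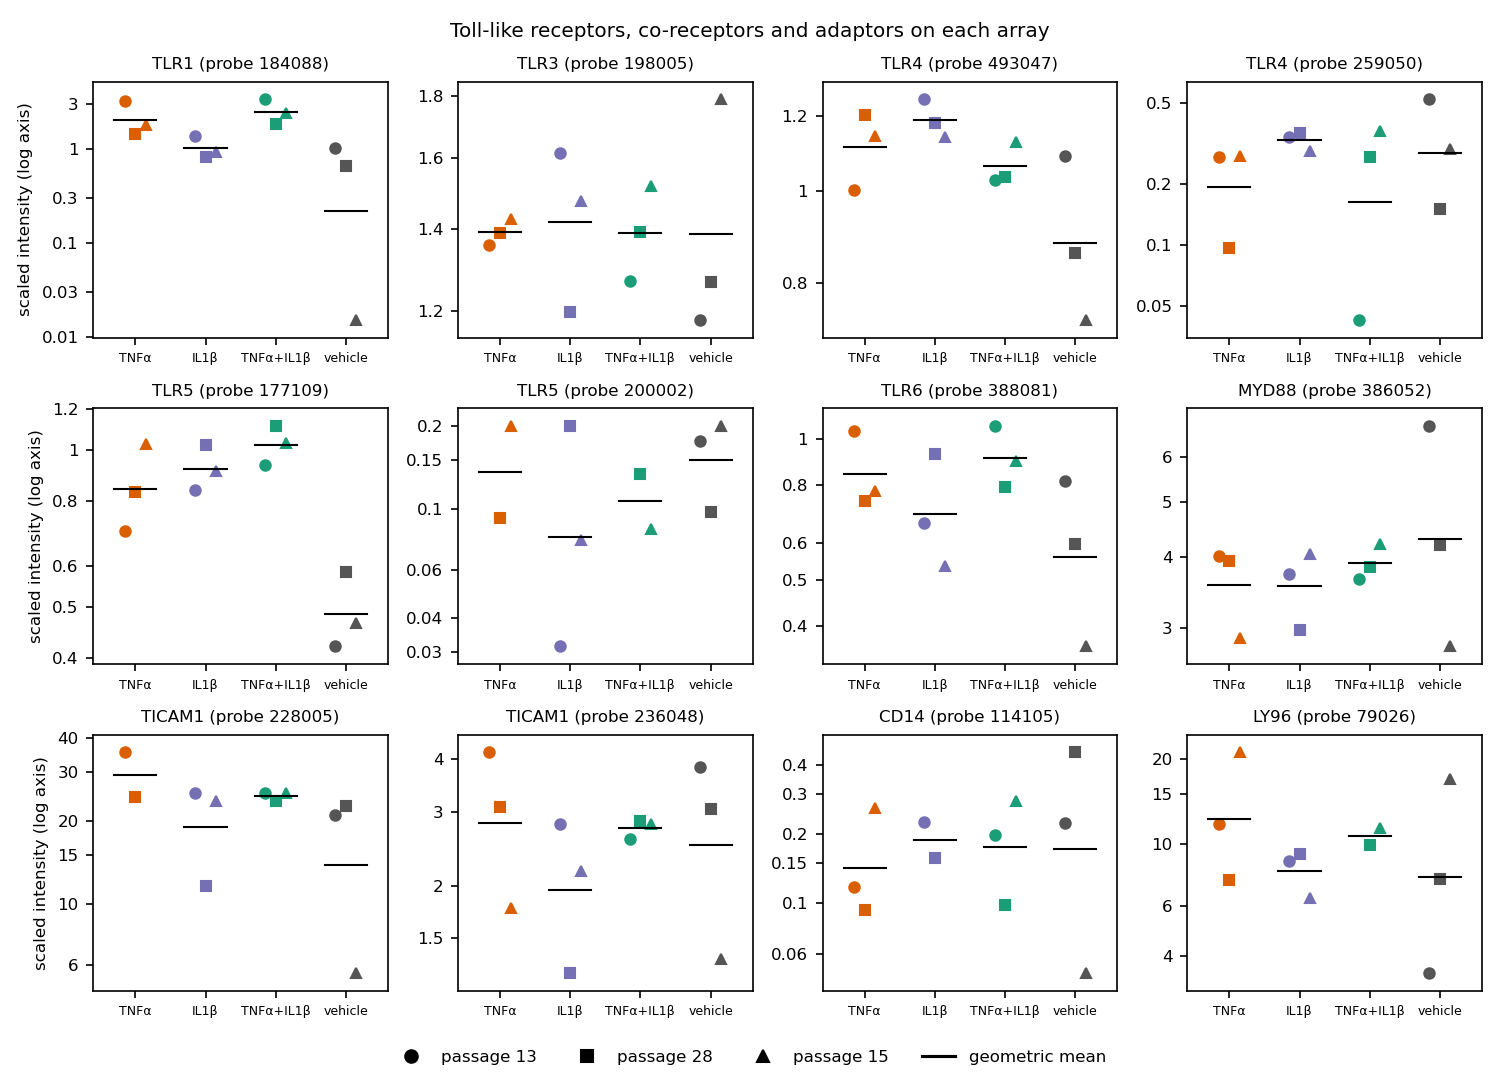
Scaled intensity (log axis) of the 12 probes on each array, by group, with the passage as the symbol and the geometric mean of each group as a line. TLR5 probe 177109 lies between 0.699 and 1.11 on the 9 cytokine arrays and between 0.421 and 0.584 on the vehicle arrays; readings at or below 0 and missing readings are not drawn.

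TLR1, a partner of TLR2 in lipopeptide sensing, was higher on every array that had received TNFα. Probe 184088 read 3.22, 1.42 and 1.80 with TNFα, 1.36, 0.824 and 0.934 with IL1β and 3.37, 1.83 and 2.42 with both, against 1.01, 0.653 and 0.0151 with vehicle. The 6 arrays with TNFα, alone or with IL1β, all lay above the 6 arrays without it, as they did for 0.373% of all probes tested. IL1β arrays overlapped the vehicle arrays.

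The size of the TLR1 difference rests on vehicle replicate 3, where the probe read 0.0151. With all arrays the differences from vehicle were 3.23 ± 1.26 with TNFα (limma, adjusted p = 0.640), 2.24 ± 1.26 with IL1β (adjusted p = 0.598) and 3.52 ± 1.26 with both (adjusted p = 0.284). Without that array they were 1.31, 0.32 and 1.60 (adjusted p = 0.308, 0.714 and 0.140). The comparison of the 6 TNFα arrays with the 6 others gave 2.25 ± 0.89 with all arrays (adjusted p = 0.599) and 1.30 without vehicle replicate 3 (adjusted p = 0.165). None was called. Within passages 13 and 28 the difference from vehicle was 1.67 and 1.12 with TNFα, 0.43 and 0.33 with IL1β, and 1.74 and 1.49 with both.

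TNFα against IL1β alone, which does not use the vehicle arrays, gave 0.99 ± 1.26 for TLR1 (adjusted p = 0.946), and both cytokines against IL1β gave 1.28 ± 1.26 (adjusted p = 1.000). Groups did not overlap in either comparison, where 10.8% and 8.09% of all probes did so in the same direction. The standard error is shared by the 4 groups and includes the spread that vehicle replicate 3 adds, and without that array the adjusted p of these comparisons was 0.652 and 0.724.

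TLR6, the other partner of TLR2, varied less. It read 1.04, 0.741 and 0.775 with TNFα, 0.663, 0.932 and 0.537 with IL1β and 1.07, 0.791 and 0.899 with both, against 0.817, 0.600 and 0.362 with vehicle. The groups overlapped, because vehicle replicate 1 was above the lowest array of each cytokine group. The differences from vehicle were 0.59 ± 0.32, 0.30 ± 0.32 and 0.70 ± 0.32 for TNFα, IL1β and both (adjusted p = 0.771, 0.800 and 0.394). Without vehicle replicate 3 they were 0.27, −0.016 and 0.38. Over the 12 arrays TLR6 and TLR1 had a Pearson correlation of 0.86, given as a description since both are lowest on vehicle replicate 3. The likeness was not particular to this pair. TLR1 had correlations of 0.91 with TICAM1 probe 228005 and 0.71 with TLR4 probe 493047, against −0.52 with TLR3. The protein-coding genes TLR1 and TLR6 lie side by side on chromosome 4, and TICAM1 lies on chromosome 19.

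TLR3, the sensor of double-stranded RNA, did not separate the groups. Its probe 198005 read 1.36, 1.39 and 1.43 with TNFα, 1.62, 1.20 and 1.48 with IL1β and 1.27, 1.39 and 1.52 with both, against 1.18, 1.27 and 1.79 with vehicle. The vehicle arrays held both the lowest and the highest reading. The differences were 0.0031, 0.032 and 0.0014, each with a standard error of 0.20. For both cytokines the 95% interval ran between −0.45 and 0.46, which is 0.730-fold to 1.37-fold.

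TLR4 on its brighter probe, 493047, read 1.00, 1.20 and 1.14 with TNFα, 1.25, 1.18 and 1.14 with IL1β and 1.03, 1.03 and 1.13 with both, against 1.09, 0.861 and 0.731 with vehicle. Only the IL1β arrays lay wholly above the vehicle arrays, an order that 3.53% of all probes had for IL1β. The differences were 0.34 ± 0.18 with TNFα (adjusted p = 0.771), 0.43 ± 0.18 with IL1β (unadjusted p = 0.0412, adjusted p = 0.498) and 0.27 ± 0.18 with both (adjusted p = 0.576). On vehicle replicate 1, from passage 13, the reading was above that of the same passage with TNFα and with both. The other probe, 259050, read 0.0429 to 0.525 over all arrays, with differences of −0.57 ± 0.77, 0.20 ± 0.77 and −0.82 ± 0.77, and did not resolve a difference of the size seen on the brighter probe.

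Neither co-receptor of TLR4 was called. LY96, which binds lipopolysaccharide beside TLR4, read 11.8, 7.42 and 21.1 with TNFα, 8.69, 9.19 and 6.44 with IL1β and 9.93 and 11.4 with both (passages 28 and 15, the other reading missing), against 3.48, 7.48 and 17.0 with vehicle. The vehicle arrays spanned most of the range of the cytokine arrays. The differences were 0.69 ± 0.56, 0.072 ± 0.56 and 0.48 ± 0.62 (adjusted p = 0.883, 0.981 and 0.798). CD14, which hands lipopolysaccharide to TLR4 and marks monocytes, read 0.0933 to 0.259 with TNFα, 0.225 and 0.158 with IL1β (passages 13 and 28, the passage 15 reading at or below 0) and 0.0978 to 0.280 with both, against 0.0495 to 0.455 with vehicle. Its differences were −0.27 ± 0.77, 0.14 ± 0.86 and 0.034 ± 0.77, and the vehicle arrays enclosed all cytokine readings above 0.

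**Figure D2:**
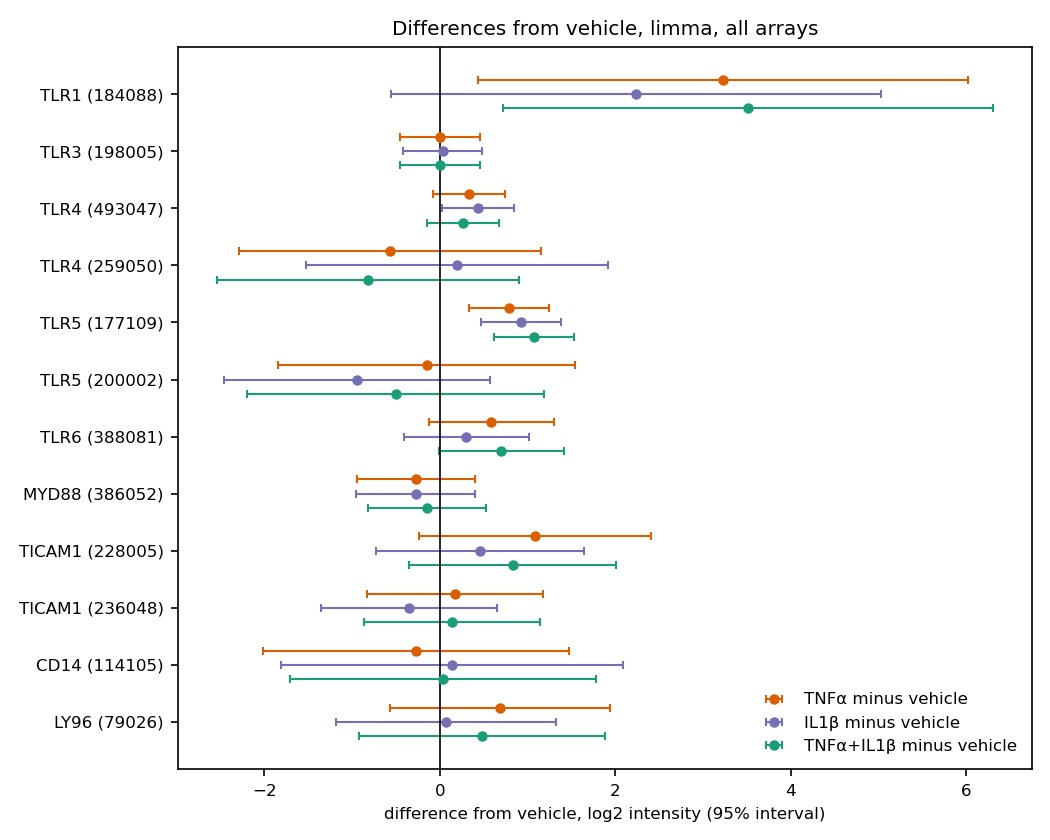
Differences from vehicle in log2 intensity for each probe (points) with 95% intervals from limma, for TNFα, IL1β and both cytokines. The 3 intervals of TLR5 probe 177109 lie above 0 and those of TLR3 are centred on it, while the TLR1 intervals are wide; after adjustment over all probes none of the differences was called.

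The adaptors MYD88 and TICAM1 were measured by probes that lay above the array median in every reading present. They are given with the RefSeq windows around their start sites, beside those of TLR3 and TLR5. The windows show the promoter letters of the adaptors and receptors described. Each window holds 250 bases before and 50 from the start site on GRCh38.p14, and 8 of the 10 genes had one. Capitals mark matches to the motifs searched on both strands: the kappaB consensus, the interferon-stimulated response element (GAAA, any 2 bases, GAAA) and the gamma-activated site TTCNNNGAA. The AP-1 site TGANTCA was searched as well and does not occur in these 4 windows. The windows are chr1:223143199-223143498 (minus strand) for TLR5, chr4:186068906-186069205 (plus) for TLR3, chr3:38138411-38138710 (plus) for MYD88 and chr19:4831663-4831962 (minus) for TICAM1.
TLR5 promoter: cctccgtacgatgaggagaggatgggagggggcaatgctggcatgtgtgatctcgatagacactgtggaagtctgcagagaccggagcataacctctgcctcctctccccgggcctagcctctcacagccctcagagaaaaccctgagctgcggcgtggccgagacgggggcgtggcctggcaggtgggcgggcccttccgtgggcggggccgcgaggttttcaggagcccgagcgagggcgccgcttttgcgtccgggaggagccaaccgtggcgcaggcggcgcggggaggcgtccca
TLR3 promoter: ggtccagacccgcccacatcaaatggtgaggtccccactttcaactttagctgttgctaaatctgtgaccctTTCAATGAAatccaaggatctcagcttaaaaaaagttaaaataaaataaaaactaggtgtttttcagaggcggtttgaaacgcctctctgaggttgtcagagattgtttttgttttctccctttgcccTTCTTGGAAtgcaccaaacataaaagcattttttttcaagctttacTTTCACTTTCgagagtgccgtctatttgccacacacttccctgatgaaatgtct
MYD88 promoter: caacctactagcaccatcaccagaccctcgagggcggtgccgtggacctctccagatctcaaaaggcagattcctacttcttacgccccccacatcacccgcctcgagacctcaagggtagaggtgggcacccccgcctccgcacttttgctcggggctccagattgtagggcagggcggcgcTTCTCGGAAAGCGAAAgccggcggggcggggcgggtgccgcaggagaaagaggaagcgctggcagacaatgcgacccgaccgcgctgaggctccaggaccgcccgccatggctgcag
TICAM1 promoter: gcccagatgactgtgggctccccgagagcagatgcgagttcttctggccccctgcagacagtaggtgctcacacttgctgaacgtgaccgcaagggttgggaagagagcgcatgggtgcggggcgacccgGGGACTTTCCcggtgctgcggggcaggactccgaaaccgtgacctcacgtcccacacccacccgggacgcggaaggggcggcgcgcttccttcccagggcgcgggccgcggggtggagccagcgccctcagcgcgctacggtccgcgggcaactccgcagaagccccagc
TICAM1 had a kappaB match, GGGACTTTCC, at −120 to −111 relative to the start site, and 5.91% of 35116 promoter windows had one. MYD88 had the response element GAAAGCGAAA at −61 to −52, a motif in 3.57% of windows, overlapped by the gamma-activated site TTCTCGGAA at −67 to −59 (7.66% of windows). TLR3 had a response element on the minus strand across its start site and 2 gamma-activated sites upstream. CD14 had 1 gamma-activated site and 1 AP-1 match (7.71% of windows), and the windows of TLR2, TLR4, TLR5 and TLR6 held none of these letters. A match describes the letters of the window and is not a measured binding site.

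MYD88, the adaptor shared by most of these receptors and by the IL1 receptor, read 4.01, 3.93 and 2.88 with TNFα, 3.74, 2.98 and 4.04 with IL1β and 3.66, 3.84 and 4.21 with both, against 6.81, 4.20 and 2.78 with vehicle. The vehicle arrays held the highest and the lowest reading. The differences were −0.27 ± 0.30 with TNFα, −0.27 ± 0.30 with IL1β and −0.14 ± 0.30 with both (limma, adjusted p = 0.936, 0.809 and 0.888). Without vehicle replicate 3 they were −0.59, −0.59 and −0.46, also not called (adjusted p = 0.367, 0.335 and 0.382).

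TICAM1, the adaptor of TLR3, gave different values on its 2 probes. Probe 228005 read 35.4 and 24.5 with TNFα (the passage 15 reading missing), 25.2, 11.6 and 23.6 with IL1β and 25.3, 23.7 and 25.1 with both, against 20.9, 22.7 and 5.63 with vehicle. The arrays with TNFα alone and with both lay above the vehicle arrays, orders that 3.72% and 7.02% of all probes had in those comparisons. The differences were 1.08 ± 0.59, 0.46 ± 0.52 and 0.83 ± 0.52 (adjusted p = 0.770, 0.818 and 0.543). Without vehicle replicate 3 they were 0.43, −0.19 and 0.18.

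The other TICAM1 probe, 236048, read 4.16, 3.08 and 1.77 with TNFα, 2.80, 1.24 and 2.16 with IL1β and 2.59, 2.86 and 2.80 with both, against 3.84, 3.04 and 1.34 with vehicle, and all groups overlapped. Its differences were 0.18 ± 0.45, −0.35 ± 0.45 and 0.14 ± 0.45. The estimates of the 2 probes thus differed in sign for IL1β and in size for TNFα and both, with standard errors of 0.45 to 0.59. Over the arrays with both readings the probes had a Pearson correlation of 0.84. Their TNFα values come from different sets of arrays. The passage 15 reading, missing on probe 228005, was the lowest with TNFα on probe 236048 (1.77). Without the 3 arrays that stood apart, the TNFα differences were 0.43 on probe 228005 and 0.065 on probe 236048.

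The adaptor readings went with the 3 arrays that stood apart. On those 3 arrays MYD88 read 2.78 to 2.98, against 3.66 to 6.81 on the other 9. TICAM1 read 5.63 to 11.6 (2 readings) against 20.9 to 35.4 on probe 228005, and 1.24 to 1.77 against 2.16 to 4.16 on probe 236048. All adaptor readings present on these arrays, with that of TICAM1 probe 228005 missing on TNFα replicate 3, thus lay below every reading of the same probe on the other 9. Over the readings present, 8.34% of all probes had that order. The correlation with the component score over the arrays was −0.83 for MYD88 and −0.90 and −0.83 for the TICAM1 probes, against 0.74 for LY96, −0.75 for TLR1 and −0.096 for TLR5 probe 177109 (11 or 12 arrays). For the dim TLR5 probe 200002 it was 0.49 (10 arrays). That probe read 0.199 to 0.200 on these 3 arrays, against 0.0315 to 0.175 on the other arrays with a reading above 0. Of all probes, 5.03% were higher on these 3 arrays in that way. The part that the state of these arrays has in the adaptor differences was not tested. Without these 3 arrays the differences for both cytokines were −0.46 for MYD88 and 0.18 and −0.32 for TICAM1, and TLR5 probe 177109 stood at 1.05 (adjusted p = 0.0875).

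**Figure D3:**
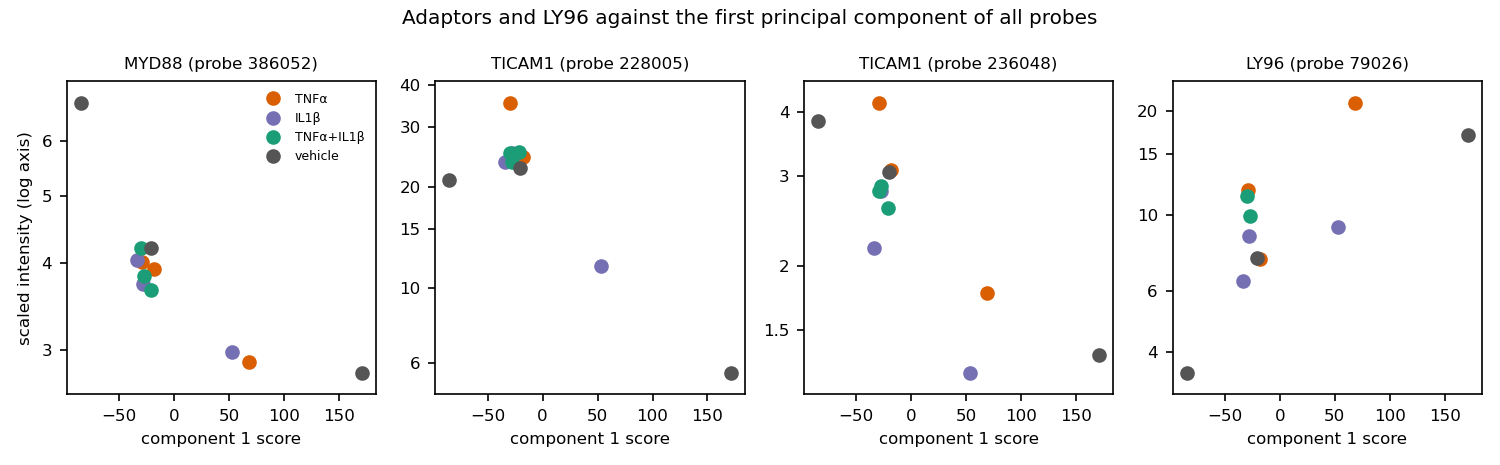
Scaled intensity (log axis) of MYD88, both TICAM1 probes and LY96 against the score of each array on the first principal component of all probes, coloured by group. The 3 arrays with scores above 50 (IL1β replicate 2 at 53.0, TNFα replicate 3 at 68.7 and vehicle replicate 3 at 171) hold the lowest adaptor readings; the missing readings of TICAM1 probe 228005 and LY96 are not drawn.

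The rest of the pathway was read from 4 lists, 1 probe per gene. The shares of all probes at an unadjusted p under 0.05 that are set beside them count every probe tested. Probes with no gene are among these, and a share per gene was not counted. Of the other Toll-like receptors and accessory proteins 16 of 17 were measured, and 0 were called in any comparison with vehicle. An unadjusted p under 0.05 was reached by 1 in each, against 7.05%, 9.67% and 12.9% of all probes with TNFα, IL1β and both. Of all genes, read at 1 probe per gene, 0.0773% were called with TNFα, 0.011% with IL1β and 0.348% with both. Medians were 0.080, −0.014 and 0.021 for TNFα, IL1β and both, against −0.019, −0.15 and −0.097 over all genes. UNC93B1, which carries the endosomal receptors out of the endoplasmic reticulum, read 2.79, 1.82 and 0.915 with TNFα against 8.64, 2.55 and 7.90 with vehicle, a difference of −1.74 ± 0.56 (adjusted p = 0.529). The groups overlapped. With IL1β UNC93B1 differed by −0.79 ± 0.56 and with both by −0.98 ± 0.56 (limma, adjusted p = 0.680 and 0.492), neither called. CD36, a scavenger receptor that assists TLR2 with TLR6, read 0.506, 0.483 and 0.433 with IL1β against 0.825, 0.595 and 0.995 with vehicle. These groups did not overlap, as for 9.96% of all probes in that direction, and the difference of −0.74 ± 0.23 was not called (adjusted p = 0.431). For CD36 the difference was −0.48 ± 0.23 with TNFα and −0.72 ± 0.23 with both (limma, adjusted p = 0.727 and 0.240), neither called.

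Of the kinases and ubiquitin ligases below the receptors 17 of 20 were measured and 0 were called. In each comparison with vehicle 3 had an unadjusted p under 0.05, against 7.05%, 9.67% and 12.9% of all probes with TNFα, IL1β and both. Their medians were 0.16, −0.074 and 0.073, against −0.019, −0.15 and −0.097 over all genes. TRAF3, the ubiquitin ligase that links TICAM1 to the interferon branch, read 7.45, 8.46 and 8.06 with both cytokines, against 1.55, 2.85 and 0.995 with vehicle. Groups did not overlap, as for 7.02% of all probes in that direction, and the difference was 2.29 ± 0.46 (adjusted p = 0.0956). It was called with array weights (adjusted p = 0.0487), with a trended and robust variance prior (0.0410) and without dim probes (0.0359). With IL1β alone it was 1.45 ± 0.46 and with TNFα alone 1.39 ± 0.46 (limma, adjusted p = 0.431 and 0.544), neither called. A second TRAF3 probe gave 0.80 ± 0.49 for both cytokines.

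Of the 11 listed inhibitors of the pathway, all measured, 1 was called. An unadjusted p under 0.05 (limma) was reached by 2, 2 and 3 with TNFα, IL1β and both, against 7.05%, 9.67% and 12.9% of all probes. Their medians were −0.032, −0.16 and −0.024, against −0.019, −0.15 and −0.097 over all genes. TNFAIP3 (A20), which edits ubiquitin on signalling proteins and limits NF-kappaB, read 9.15, 3.01 and 3.96 with TNFα, 4.21, 1.71 and 3.13 with IL1β and 10.2, 9.73 and 10.2 with both, against 1.73, 1.01 and 0.811 with vehicle. It rose by 3.16 ± 0.46 with both cytokines (limma, adjusted p = 0.0274), which is 8.93-fold, against 0.348% of all genes called in that comparison. With TNFα it differed by 2.09 ± 0.46 (adjusted p = 0.271) and with IL1β by 1.33 ± 0.46 (adjusted p = 0.441), neither called. The value stayed between 2.91 and 3.47 when any 1 array or passage was left out. The call ended without vehicle replicate 2 or 3 (adjusted p = 0.0750 and 0.0653), IL1β replicate 3 (0.0529), any of the 3 arrays with both cytokines (0.0934 to 0.111) or any whole passage (0.161 to 0.319). It also ended in a fit of the 6 compared arrays alone (0.0796) and without the 3 arrays that stood apart (a difference of 2.92, adjusted p = 0.0796).

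All 9 listed transcription factors were measured and 0 were called. With TNFα, IL1β and both, 2, 0 and 2 had an unadjusted p under 0.05 (limma), against 7.05%, 9.67% and 12.9% of all probes. IRF7, the interferon regulatory factor downstream of the endosomal receptors, read 15.5, 8.04 and 8.90 with TNFα and 14.1, 12.6 and 16.2 with both, against 5.57, 4.69 and 2.80 with vehicle. Both groups lay above the vehicle arrays, as for 3.72% of all probes with TNFα and 7.02% with both. The differences were 1.31 ± 0.35 (adjusted p = 0.400) and 1.76 ± 0.35 (adjusted p = 0.0926). The second was called with array weights (adjusted p = 0.0294), with the trended and robust prior (0.0404) and without dim probes (0.0329). The list medians were 0.31, 0.13 and 0.39 for TNFα, IL1β and both, against −0.019, −0.15 and −0.097 over all genes.

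**Figure D4:**
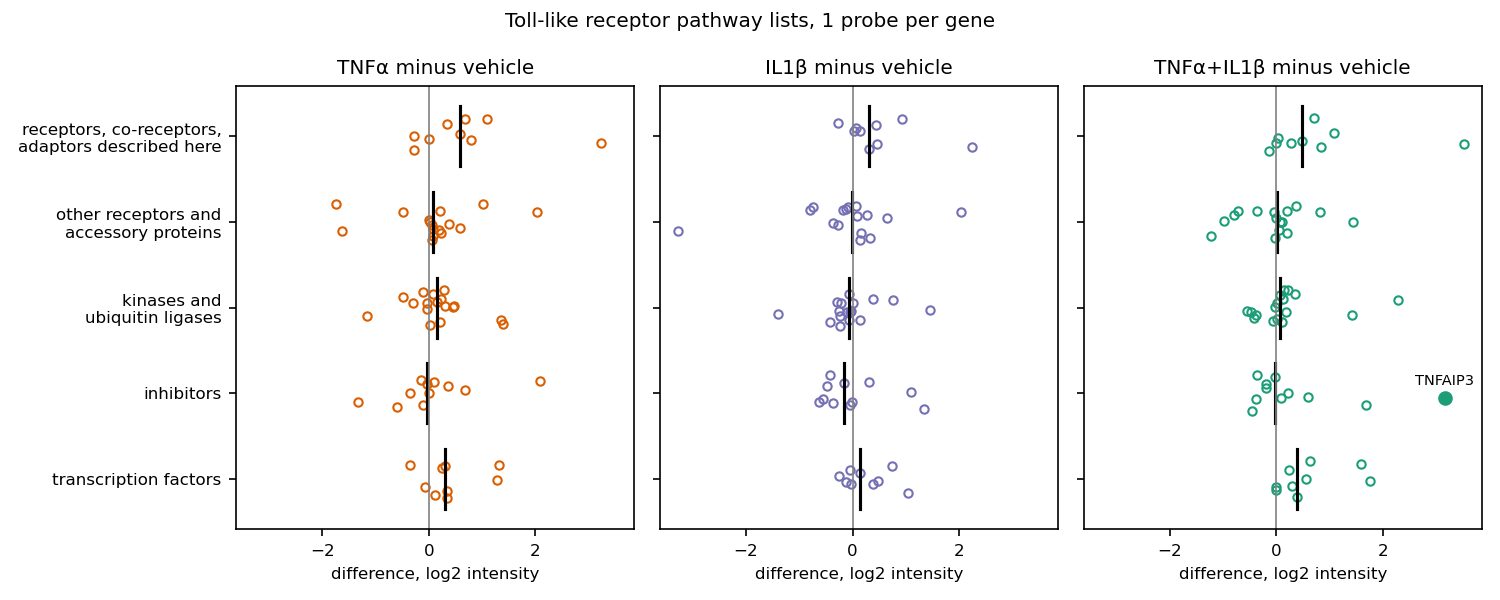
Difference from vehicle in log2 intensity of each gene (circles, 1 probe per gene) by list, with the list median as a bar, for TNFα, IL1β and both cytokines; filled circles are called. Medians lie between −0.16 and 0.59, and TNFAIP3 with both cytokines, at 3.16, is the called gene.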

How the data were processed

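The deposited values were linear intensities of single-colour CodeLink arrays; how images were read, background corrected and signals scaled is not given in the sources used here. Array medians were close to 1, from which scaling of each intensity to its array by the authors was inferred, and medians of log2 values differed by at most 0.05 between arrays, so no further scaling was applied. The code −9999 (0.716% of values) and intensities at or below 0 (1.10%) were set to missing, and probes with at least 2 values in each group were kept. The files carry no detection calls.

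limma 3.58.1 (R 4.3.3) fitted group means to the log2 values of the 12 arrays (8 residual degrees of freedom, two-sided). An exact permutation test of 3 against 3 arrays cannot go below 0.1. Genes came from the platform's table (23472 probes with 1 gene, 905 with several, 29982 with none), with current symbols by Entrez identifier for 23434, and the brightest probe by mean log2 stands for a gene in the lists. Named pathway genes are those called plus the 3 with the lowest p per comparison with vehicle; the 5 genes most like the member with the lowest p are named too. Sequences are from RefSeq (GRCh38.p14). The fit was checked on simulated data. Members, lists and tests were chosen with earlier results of these data known.

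Replicate numbers mark shared passages, per the labels. Once group means were subtracted, the 18 same-passage pairs of arrays had a mean correlation of 0.0071 (−0.20 to 0.31), against −0.0029 for the 36 other pairs. A fit blocked by passage was among the alternatives.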

Additional observations from a re-analysis of the deposited data

Results flagged for a closer look

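The probe listed with both TLR2 and LOC100419170 entered no comparison of the report, because it cannot be assigned to 1 gene, and its signal was above the level of the vehicle arrays with TNFα. It read 2.39, 1.81 and 2.34 with TNFα, 1.40, 1.26 and 1.34 with IL1β and 1.47, 1.74 and 1.61 with both, against 0.833, 1.49 and 1.57 with vehicle. The TNFα arrays lay above all others. Of all probes tested, 3.72% had the TNFα arrays wholly above the vehicle arrays and 10.8% wholly above the IL1β arrays. The share with the whole order was not counted. The difference of TNFα from vehicle was 0.79 ± 0.25 (limma, unadjusted p = 0.00972, adjusted p = 0.526), and it was 0.094 with IL1β and 0.36 with both. None was called.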

How the results depend on the processing

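Under 26 alternatives 45 differences given for single probes of these genes, those from vehicle and further ones of TLR1 and TLR5, were recomputed 1124 times. The sign turned in 66 of these, 53 of them with an array or passage left out, and 1 difference became called. That was TLR5 with both cytokines under array weights (1 of 12 probes called, against 0 without weights), where 1200 of all probes were called. The TLR5 (probe 177109), TLR1 and brighter TLR4 differences from vehicle kept their sign under every alternative that gave a value. With the passage as a replicate block, TLR5 with both cytokines stood at 1.08 (adjusted p = 0.105), TNFAIP3 stayed called (adjusted p = 0.0180), no call of a member was made and the SOD2 call with IL1β ended (adjusted p = 0.0594).

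The sign turned under array weights for TLR5 probe 200002 (0.065) and TLR4 probe 259050 (0.018) with TNFα, CD14 (−0.79) and the shared TLR2 probe (−0.029) with IL1β, and TICAM1 probe 236048 (−0.092) and CD14 (−0.97) with both. Without the 3 arrays that stood apart it turned for TLR6 (−0.23) and CD14 (−0.50) with IL1β and for TICAM1 probe 236048 (−0.32) and CD14 (−0.86) with both. Quantile normalization turned TLR5 probe 200002 with TNFα (0.17) and TLR3 with both (−0.0077), and an offset of 0.1 turned CD14 with IL1β (−0.73) and with both (−0.088). The cause was not tested.

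When each array or passage was left out in turn, the sign also turned for these differences, given as lowest to highest value. With TNFα they were TLR3 (−0.11 to 0.19), TLR5 probe 200002 (−0.71 to 0.41), MYD88 (−0.59 to 0.061), TICAM1 probe 236048 (−0.27 to 0.52) and CD14 (−1.60 to 0.73). With IL1β they were TLR3 (−0.18 to 0.21), TLR4 probe 259050 (−0.32 to 0.64), TLR6 (−0.016 to 0.60), MYD88 (−0.68 to 0.057), TICAM1 probes 228005 (−0.35 to 1.17) and 236048 (−0.88 to 0.12), CD14 (−0.76 to 1.10), LY96 (−0.55 to 0.81) and the shared TLR2 probe (−0.23 to 0.26). With both they were TLR3 (−0.12 to 0.18), TLR4 probe 259050 (−1.66 to 0.58), TLR5 probe 200002 (−1.15 to 0.032), MYD88 (−0.51 to 0.23), TICAM1 probe 236048 (−0.33 to 0.49), CD14 (−1.20 to 1.16) and LY96 (−0.086 to 1.06). TNFα minus IL1β of TLR5 probe 177109 ran between −0.28 and 0.0043. A filter on dim probes left out the dim ones, and a fit of the compared groups alone gives no value for the effects over both backgrounds or the interaction. With 3 arrays a group and no detection calls, low signal limits what can be resolved for CD14, TLR5 probe 200002 and TLR4 probe 259050, whose readings all lay under the array median. All vehicle readings of TLR5 probe 177109 and TLR6, most of their cytokine readings and that of TLR1 on vehicle replicate 3 lay under it too.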
